A study of Homo sapiens and Mus musculus with 12 samples.

Results

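The comparison described here asks which mRNAs were relatively more, or less, abundant in polysomes than in total RNA when Yumm1.7 mouse melanoma cells of the state labelled S were set against those of the state labelled P. It rests on 4 of the series' 12 RNA sequencing libraries: P input, P polysome, S input and S polysome. Per the series text, polysome profiling was done on parental and drug-tolerant persister cells (cells that survive a drug without stable resistance) of Yumm1.7 and of the human melanoma line A375. The labels mark the states by the letters P and S only, without saying which is parental, so the letters are used as they are. The sources used here give no drug, dose or length of treatment. Input is RNA taken before the sucrose gradient, and polysome RNA comes from the 4 to 5 lowest gradient fractions. Both states are the same line, labelled as melanoma cells from skin, and each library is 1 sample with no replicate. No test, p-value or standard error can therefore be given, and the size of a difference cannot be compared with replicate error.

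In a polysome gradient, mRNAs sediment by the number of ribosomes that they carry, so the densest fractions hold mRNAs with many ribosomes. The number of ribosomes an mRNA can hold depends on how often translation starts on it and on the length of its coding sequence. Ribosomal protein mRNAs begin with a tract of pyrimidines, the TOP motif, through which mTOR signalling controls their loading onto polysomes. mRNAs of the mitochondrial genome are translated by separate ribosomes inside mitochondria.

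For each gene, the log2 of polysome over input was taken in each state on the log2(TPM + 1) scale, where TPM is read density scaled to 1000000 per library. The P value was then subtracted from the S value, and the median gene was set to 0. A positive difference means relatively more polysome RNA per input RNA in S than in P. A gene entered when its mean over the 6 Yumm1.7 libraries reached 5 TPM, which 7634 of 12711 did. Of these, 913 genes (12%) were at least 2-fold higher in S than in P relative to the median gene, 724 (9.48%) were at least 2-fold lower and 5997 lay within 2-fold. On the deposited scale, without the median gene set to 0, the split was 275 higher and 2311 lower, because the median gene itself stood at -0.60. The median gene of the S against P difference was at -1.0 in input RNA and -1.62 in polysome RNA. TPM is relative within a library, so neither scale says how much RNA or how many ribosomes a fraction held, and fewer cells cannot be told apart from less RNA per cell. Every log2 value below is relative to the median gene unless it is called deposited.

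Read depth is unknown because TPM keeps none. The listed genes made up 84.5% to 94.4% of 1000000 TPM. Input and polysome levels had a Pearson r across genes of 0.95 in P and 0.93 in S. Among the genes tested, 160 were listed at 0 in S input and 40 in S polysome, against 3 and 5 in the P libraries. Of the genes at least 2-fold higher, 45 were at 0 in S input. Of those at least 2-fold lower, 3 were at 0 in S polysome. Just inside the 2-fold line were Ifitm2 at 1.0 and Piezo1 at -1.0, and just outside it were Ube2c at 0.999 and Trappc10, which also rounds to -1.0. Timeless was just inside the filter and Epc1 just outside it, both with a mean of 5.00 TPM.

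Polysome-to-input ratios spread more widely in S than in P. The SD across genes was 0.58 in P and 0.82 in S. In P, 86 genes (1.13%) were at least 2-fold above the median gene and 403 (5.28%) at least 2-fold below it. In S, these counts were 785 (10.3%) and 732 (9.59%). The widening was therefore mainly on the upper side, where few genes of P lay. The plot of ratios in P against ratios in S shows this, with mitochondrially encoded mRNAs and cytosolic ribosomal protein mRNAs on the left of the P axis but near the median gene on the S axis.

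**Figure D1:**
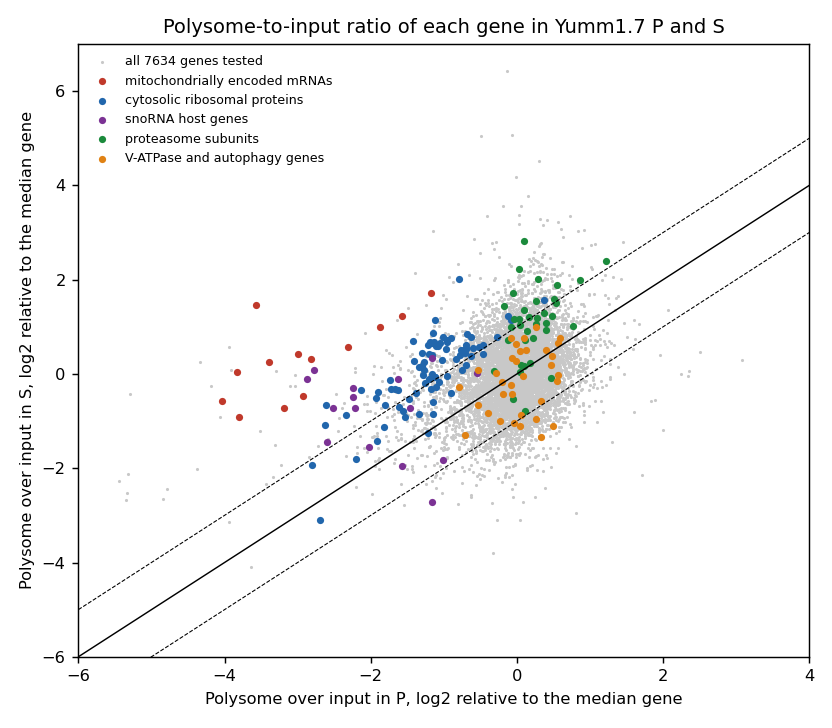
Each point is 1 of 7634 genes, with its log2 polysome-to-input ratio in P on the x axis and in S on the y axis, both relative to the median gene. The solid line marks equal ratios and the dashed lines a 2-fold difference; all 13 mitochondrially encoded mRNAs (red) lie above the upper dashed line.

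mRNAs of the mitochondrial genome, which encode core subunits of the respiratory chain, had the highest median difference of the lists with at least 3 genes tested. All 13 were at least 2-fold higher in S, with a median of 2.86 and a range of 2.42 to 5.01. The median over all genes tested was 0. In P, their polysome-to-input ratio had a median of -3.0, and none of the 13 had more TPM in polysomes than in input. In S, the median ratio was 0.31 and 8 of 13 had more TPM in polysomes than in input. Together they made up 8.76% of P input TPM, 1.74% of P polysome, 17.0% of S input and 18.4% of S polysome. The family was thus depleted from polysome RNA in P and at about its input share in S. As deposited, its median was 2.26, and all 13 were at least 2-fold higher.

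mt-Nd1, a subunit of complex I, had 14086 TPM in P input, 1468 in P polysome, 16600 in S input and 16246 in S polysome. Its difference was 3.83. Only the P polysome library was low, and the other 3 were alike. mt-Co2, a subunit of cytochrome c oxidase, had 10170, 1436, 25944 and 29315 TPM in the same order, a difference of 3.60. Here the S libraries were both above the P libraries, and P polysome was again the lowest. mt-Atp6, a subunit of ATP synthase, had 13303, 1196, 35770 and 22898 TPM, a difference of 3.43. mt-Atp8 had 4762, 591, 4829 and 12785 TPM and the largest difference of the family, 5.01. The reading frames of mt-Atp8 and mt-Atp6 overlap on 1 transcript, so the split of reads between them is uncertain. mt-Co3, another cytochrome c oxidase subunit, had 7634, 1415, 20746 and 26622 TPM and a difference of 3.39, and mt-Nd2 had 4086, 855, 3498 and 4139 TPM and a difference of 3.09.

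Noncoding transcripts of the mitochondrial genome, grouped after their values were seen, were also mostly higher. Of the 22 mitochondrial tRNA genes tested, 16 were at least 2-fold higher and 1 lower, beside 12% and 9.48% of all genes. None had more TPM in polysomes than in input in P, and 3 did in S. mt-Tl1 had 898, 85.9, 96.9 and 138 TPM in P input, P polysome, S input and S polysome (difference 4.48), and mt-Tp had 448, 31.9, 58.8 and 67.1 (4.56). The ribosomal RNA mt-Rnr1, which is part of the small mitochondrial ribosomal subunit, had 1674, 55.8, 4209 and 835 TPM (3.15). mt-Rnr2, of the large subunit, had 734, 38.4, 1755 and 309 TPM (2.32). Both rRNAs were below input in the S polysome library, unlike most of the mitochondrial mRNAs. Reads from these short genes can come from longer precursors that span their neighbours, so single tRNA values are uncertain.

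Cytosolic ribosomal protein mRNAs were the next family with many genes. Of 49 large-subunit genes, 34 were at least 2-fold higher in S and none lower (median 1.19). Of 33 small-subunit genes, 25 were higher and none lower (median 1.32), beside 12% and 9.48% of all genes. As 1 set of 82 genes, their polysome-to-input ratio had a median of -1.15 in P and 0.21 in S. In P, 7 of the 82 had more TPM in polysomes than in input, and in S 46 did. Of all 7634 genes tested, 6669 had more TPM in polysomes than in input in P and 3513 in S, so the count for these mRNAs went the other way from that over all genes. On the deposited scale, 73 of the 82 were above 0 and 20 were at least 2-fold higher, with 1 lower.

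Rps25, a small-subunit protein, had 2013 TPM in P input, 1717 in P polysome, 402 in S input and 1548 in S polysome, and the largest difference of the set, 2.77. Its S input level was the lowest of the 4 libraries, whereas the polysome levels were similar. Rps13 had 2048, 1387, 743 and 1558 TPM (difference 2.23) and Rps7 had 2956, 1636, 1242 and 1934 (2.09). For both, input exceeded polysome in P and polysome exceeded input in S. Rps6, whose protein is the classical substrate of S6 kinase downstream of mTOR, followed this order with 3914, 3108, 1622 and 2636 TPM (1.63). In the large subunit, Rpl23a had 3902, 2603, 939 and 1627 TPM (1.97), Rpl37 had 1489, 963, 813 and 1238 (1.83) and Rpl36a had 2246, 1431, 1024 and 1492 (1.79). These 3 mRNAs also crossed from below input in P to above input in S. Rps29 did not cross: it had 1462, 354, 869 and 523 TPM (1.91) and was below input in both states.

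Only 2 of the 82 genes had a difference below 0. Rps12 had 4024, 919, 5507 and 617 TPM, a difference of -0.43, and was far below input in both states. Rpl21 had 450, 285, 893 and 359 TPM, a difference of -0.06. Ribosomal protein genes have many processed pseudogenes, so values of single members depend on how the authors' quantification assigned shared reads. A pseudogene entry, Rps27a-ps2, was among the genes with the largest differences (910, 319, 356 and 618 TPM, 2.90), and its reads may overlap with those of Rps27a.

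Other mRNAs with a TOP motif were higher to a lesser extent. Among 22 of them, 5 (22.7%) reached 2-fold higher and 1 (4.55%) reached 2-fold lower, with a median of 0.80. Over all genes tested these shares were 12% and 9.48%. Eef1b2, a subunit of the exchange factor of elongation factor 1, had 1056, 747, 264 and 508 TPM in P input, P polysome, S input and S polysome (2.04). Tpt1, the translationally controlled tumour protein, had 10019, 3785, 2152 and 2046 TPM (1.93). Rack1, a ribosome-bound scaffold protein, had 2076, 1879, 699 and 1103 TPM (1.40). These 3 mRNAs had less polysome than input RNA in P, whereas 17 of the 22 had more. Eif3k, a subunit of initiation factor 3, was above input in both states with 546, 599, 328 and 736 TPM (1.63). The member at least 2-fold lower was Eif4a2, an isoform of the initiation helicase, with 104, 157, 68.5 and 32.5 TPM (-1.04), which was above input in P and below it in S.

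Noncoding host genes of small nucleolar RNAs carry TOP motifs too, and their spliced RNA has short reading frames. Of 15 tested, 9 were at least 2-fold higher and 1 lower, beside 12% and 9.48% of all genes, with a median of 1.46. Their median ratio was -2.02 in P and -0.72 in S, so as a group they were below input in both states. Snhg6 had 241, 51.2, 58.1 and 58.4 TPM (2.82), Snhg8 had 220, 43.5, 41.6 and 36.9 (2.74), Zfas1 had 178, 55.0, 50 and 38.7 (1.91) and Gas5 had 820, 211, 209 and 120 (1.75). P input was the highest library for these 4 RNAs. Snhg20 was the member at least 2-fold lower, with 12.5, 7.92, 26.1 and 2.92 TPM (-1.59).

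**Figure D2:**
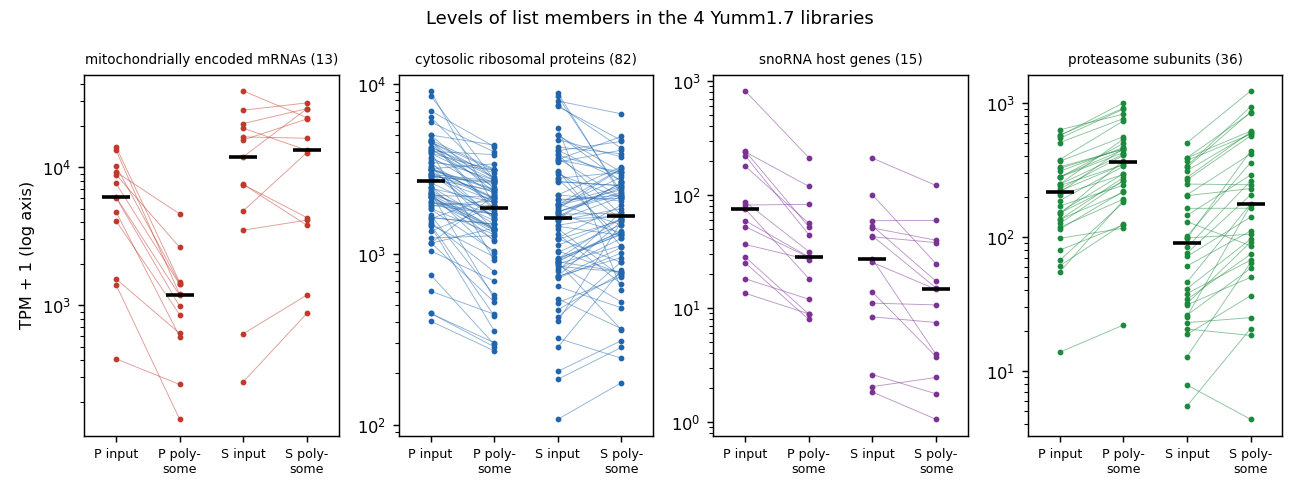
TPM + 1 (log axis) of each member tested in the 4 Yumm1.7 libraries, with lines joining input and polysome of 1 state and black bars at the median. Mitochondrially encoded mRNAs dropped from a median of 6076 TPM in input to 1177 in polysomes in P but stood at 11929 and 13289 in S, whereas proteasome mRNAs were above input in both states (217 and 359 TPM in P, 89.7 and 174 in S).

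Nuclear genes of the respiratory chain were higher than the median gene as a group. Of 37 complex I subunits, 14 were higher by 2-fold or more and none lower (median 0.96), and all 37 had a difference above 0. As deposited, 30 of the 37 were above 0 and 2 were at least 2-fold higher, with a median of 0.36. Ndufb6 had 174 TPM in P input, 294 in P polysome, 75.6 in S input and 330 in S polysome (1.96). Ndufb11 had 186, 217, 82.4 and 222 TPM (1.80). Both exceeded input by more in S than in P. Of 38 subunits of complexes II to V, 16 were higher and none lower (median 0.80). As deposited, the median of these 38 was 0.20, with none at least 2-fold higher and 2 lower. Uqcrb of complex III had 595, 736, 213 and 526 TPM (1.59) and Cycs, cytochrome c, had 252, 354, 44.6 and 115 (1.46). Atp5a1, the alpha subunit of ATP synthase, had 404, 730, 233 and 179 TPM (-0.63) and was below input in S only.

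Mitochondrial ribosomal proteins are encoded in the nucleus and translated in the cytosol. Of 78 tested, 23 were at least 2-fold higher and 2 lower, beside 12% and 9.48% of all genes, with a median of 0.64. Mrpl22 had 76.1, 133, 30.9 and 117 TPM (1.68) and Mrpl30 had 232, 159, 69.7 and 102 (1.69). Mrpl9, with 34.3, 97.0, 20.5 and 12.4 TPM (-1.56), and Mrpl3, with 13.3, 50.1, 1.43 and 1.23 (-1.37), were the lower pair. On the deposited scale the median of this list was 0.04, with 4 genes at least 2-fold higher and 7 lower, so its position depends on the median gene being set to 0.

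Proteasome subunits were higher from another starting point. Of 36 tested, 15 reached 2-fold higher and none 2-fold lower, beside 12% and 9.48% of all genes, with a median of 0.88. Their median ratio was 0.15 in P and 1.12 in S, and all 36 had more TPM in polysomes than in input in P. Psma3, a subunit of the 20S core, had 134 TPM in P input, 214 in P polysome, 24.5 in S input and 172 in S polysome (2.69). Psmb2, another core subunit, had 309, 465, 96.6 and 438 TPM (2.18), and Psmc2, an ATPase of the 19S regulator, had 205, 292, 82.8 and 261 (1.73). S input was the lowest library for all 3, while polysome levels in S were close to those in P. When the subunits were split after their values were seen, 10 of 14 core subunits and 3 of 17 subunits of the 19S regulator were at least 2-fold higher. Psme4, an alternative activator, had 12.8, 21, 6.85 and 3.35 TPM (-0.93). On the deposited scale the median of the 36 was 0.28, with 4 higher and 3 lower.

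Of the 913 genes at least 2-fold higher, 165 (18.1%) belonged to the families described so far other than the further TOP mRNAs and the mitochondrial rRNAs, which together held 321 (4.20%) of the genes tested. These families held 4 (0.552%) of the genes at least 2-fold lower. The families were grouped after their values were seen, and the shares are a description. In no gene list at all were 637 of the higher genes and 675 of the lower genes.

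**Figure D3:**
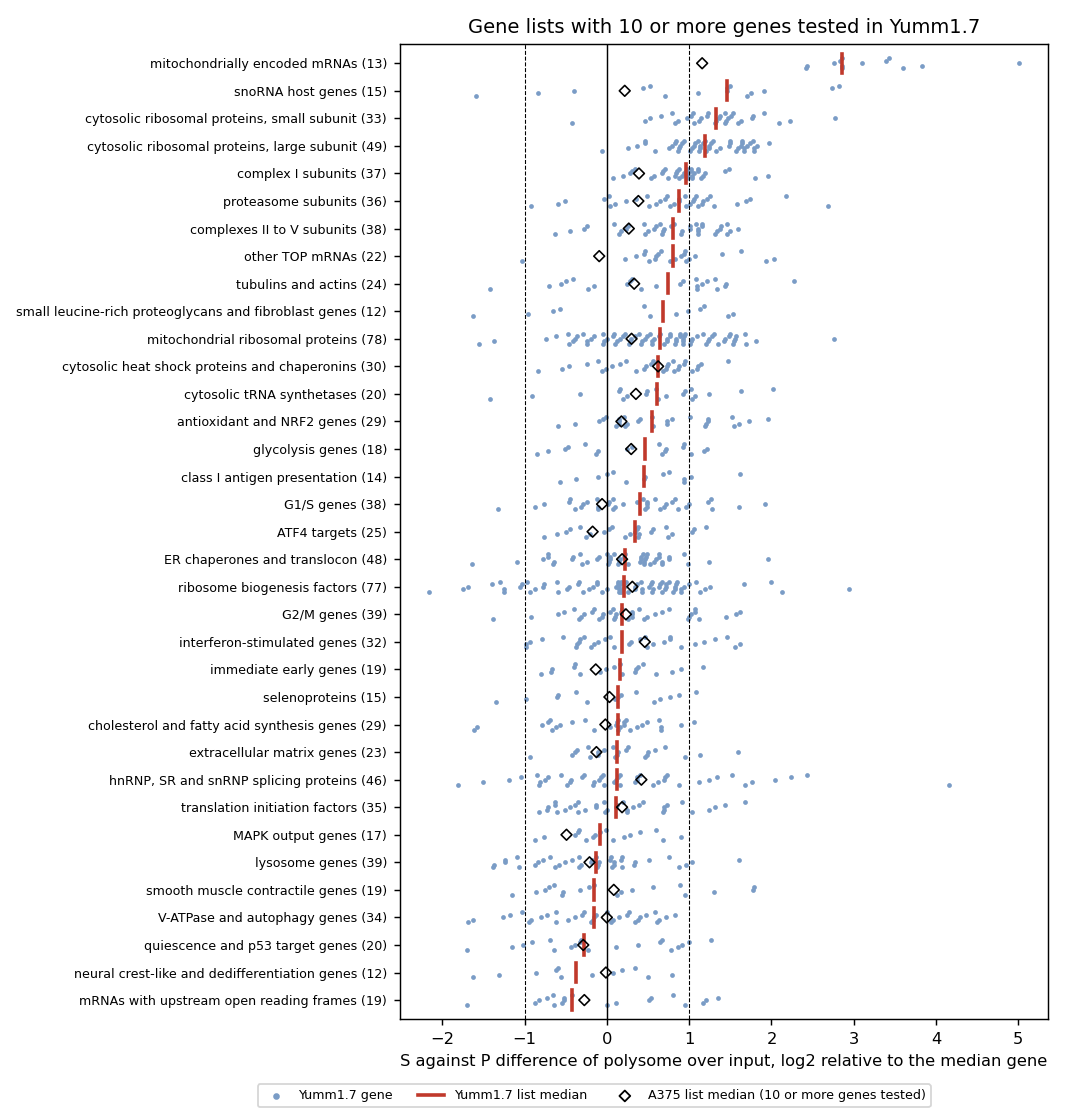
S against P difference of polysome over input (log2, relative to the median gene) for each gene (points) of the lists with at least 10 genes tested in Yumm1.7, number tested in brackets, with list medians in red and A375 medians as open diamonds. Mitochondrially encoded mRNAs stand at a median of 2.86 and mRNAs with upstream open reading frames at -0.42; dashed lines mark 2-fold.

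Other parts of the protein synthesis apparatus stood closer to the median gene. Cytosolic tRNA synthetases, which charge tRNAs with amino acids, had 6 of 20 genes higher and 1 lower (median 0.61). Qars had 76.5 TPM in P input, 101 in P polysome, 22.0 in S input and 80.1 in S polysome (2.02). Nars, the asparaginyl enzyme, had 391, 772, 119 and 57.5 TPM (-1.42) and differed in direction. Translation initiation factors had 5 of 35 higher and none lower (median 0.11). Among them, Eif3m had 181, 311, 43.3 and 159 TPM (1.68). Eif4g2, which supports cap-independent initiation, had 152, 220, 45.4 and 23.9 (-0.83). Ribosome biogenesis factors had 8 of 77 higher and 9 lower (median 0.21), near the 12% and 9.48% over all genes. Tbl3, of the small-subunit processome, had 44.2, 34.2, 10.1 and 43.1 TPM (2.94), whereas Bysl had 27.7, 47.1, 61.2 and 14.4 (-2.16) and Pno1 had 114, 187, 31.6 and 9.48 (-1.75). Bysl and Pno1 also act in small-subunit maturation.

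Of 3 single genes of ribosomal RNA synthesis, 2 were at least 2-fold lower, beside 9.48% of all genes tested. The list of 15 single genes that they come from had 2 lower genes in all. Rrn3, which recruits RNA polymerase I, had 43.9, 56.3, 28.7 and 10.6 TPM (-1.12), and Ubtf, the upstream binding factor of that polymerase, had 61.2, 134, 45.4 and 31.3 (-1.05). The catalytic subunit gene Polr1a had 15.6, 13.4, 2.82 and 2.48 TPM (0.67) and was within 2-fold. Larp1, a repressor of TOP mRNA translation, stood at -0.60, the cap-binding protein Eif4e at -0.45 and its inhibitor Eif4ebp1 at 0.24. Map2k1, a kinase of the MAPK pathway, stood at -0.53 and the receptor tyrosine kinase Axl at -0.56. None of these 5 reached 2-fold.

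Protein folding and antioxidant genes had medians above 0. Cytosolic heat shock proteins and chaperonins had 5 of 30 genes higher and none lower (median 0.62). Hspa8, the constitutive HSP70, had 2000 TPM in P input, 2208 in P polysome, 1552 in S input and 3131 in S polysome (1.47), and the chaperonin subunit Cct5 had 348, 654, 109 and 301 (1.14). Antioxidant and NRF2 genes had 10 of 29 higher and none lower (median 0.55), which is 34.5% of the list, beside 12% of all genes. Prdx1, a peroxide-reducing enzyme, had 704, 1310, 87.4 and 423 TPM (1.96), and thioredoxin Txn1 had 1061, 1605, 98.4 and 290 (1.55). In these genes the input level was far lower in S than in P while the polysome level was less so. The antioxidant median was -0.04 on the deposited scale. Chaperones and translocon genes of the endoplasmic reticulum had 2 of 48 higher and 2 lower (median 0.21). Sec61g, a channel subunit, had 263, 274, 117 and 315 TPM (1.96), and the lectin chaperone Canx had 120, 287, 64.9 and 32.3 (-1.64).

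mRNAs of the lysosome and of its proton pump had medians slightly below 0. Lysosome genes had 2 of 39 higher and 6 lower (median -0.13), so that 15.4% of the list was lower, beside 9.48% of all genes. Ctsd, the protease cathepsin D, had 466 TPM in P input, 946 in P polysome, 1486 in S input and 847 in S polysome (-1.24). Lamp1, a lysosomal membrane glycoprotein, had 599, 1005, 449 and 211 TPM (-1.24). Both were above input in P and below it in S. The tetraspanin Cd63 went the other way, with 1504, 2912, 831 and 3239 TPM (1.60). V-ATPase and autophagy genes had none of 34 higher and 5 lower (median -0.16). Atp6ap1, an accessory subunit, had 114, 212, 250 and 94.1 TPM (-1.69), and Atp6v0d1, of the membrane domain, had 49.5, 104, 101 and 44.2 (-1.63). For both, input was higher in S than in P and polysome RNA was lower.

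Lists tied to regulated translation or to the ATF4 stress response had medians on both sides of 0. Their counts are read beside 12% higher and 9.48% lower over all genes tested. mRNAs with upstream open reading frames had 3 of 19 higher and 1 lower, with the lowest median among the lists tested with at least 3 genes apart from the list of single genes, -0.42. Atf4, the stress transcription factor in this list, had 510, 591, 133 and 55.2 TPM in P input, P polysome, S input and S polysome (-0.87). Its targets had 3 of 25 higher, the same 12% as over all genes, and none lower (median 0.34). Among the higher ones was the asparagine synthetase gene Asns, with 193, 346, 34.9 and 87.3 TPM (1.06). Cdkn1b, which encodes the cell cycle inhibitor p27, had 22.0, 30.9, 15 and 3.5 TPM (-1.70). Ferritin mRNAs, which carry an iron-responsive element, were below input in both states but less so in S. Ftl1 had 8130, 2005, 22315 and 8235 TPM (1.18) and Fth1 had 3397, 1305, 3173 and 1715 (1.09). Selenoproteins, in which a UGA codon is read as selenocysteine, had 1 of 15 higher and 1 lower (median 0.13). The muscle-associated Selenon, with 23, 41.3, 69.7 and 31.2 TPM (-1.36), was the lower one.

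Proliferation genes were compared from very low S levels. G2/M genes had 7 of 39 higher and 1 lower (median 0.18) and G1/S genes 5 of 38 higher and 1 lower (median 0.40). The higher shares were 17.9% and 13.2% and the lower shares 2.56% and 2.63%, beside 12% and 9.48% over all genes. In input RNA their medians of S against P were -3.74 and -2.57, and the median G2/M gene had 0.267 TPM in S input. Cdk1, the mitotic kinase, had 102 TPM in P input, 201 in P polysome, 0.762 in S input and 5.77 in S polysome (1.57). Cdc20, an activator of the anaphase-promoting complex, had 152, 236, 0.587 and 3.97 (1.61). At such levels the added 1 TPM weighs on the ratio in S, and the median of the G2/M list was 1.14 with 0.1 TPM added and -0.08 with 5 TPM. The G1/S median was 0.61 and 0.08 in these settings. As a residual from a line on the input difference, both medians turned below 0, to -0.28 for G2/M and -0.12 for G1/S genes. Pttg1, securin, was the exception in level, with 47.9, 89.7, 43.5 and 148 TPM (1.44). Pcna, the replication clamp, had 310, 636, 7.68 and 34.8 TPM (1.61), and the helicase subunit Mcm3 had 68.0, 106, 10.7 and 3.81 (-1.32). Quiescence and p53 target genes had 1 of 20 higher and 3 lower (median -0.27), with Cdkn1a at 209, 317, 89.6 and 43.8 TPM (-1.02).

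Splicing factors had 10 of 46 higher (21.7%) and 4 lower (8.7%), with a median of 0.12. Over all genes tested, 12% were higher and 9.48% lower, so the lower share of this list was near that of all genes. U2af1, which recognises the 3-prime splice site, had 199 TPM in P input, 371 in P polysome, 22.1 in S input and 152 in S polysome (2.43), and Hnrnpd had 219, 366, 5.27 and 31.5 (2.23). Tra2a had 48.2, 104, 8.39 and 2.79 TPM (-1.81) and Hnrnpk had 344, 580, 167 and 64.6 (-1.51). The 4 genes were all above input in P, and the first pair was above and the second pair below input in S. Tubulin and actin genes had 10 of 24 higher and 1 lower (median 0.75). The exception was the cytoplasmic actin Actg1, with 161, 581, 129 and 114 TPM (-1.42), while Tubb2b had 4.84, 5.91, 7.02 and 29.4 (2.28).

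The counts of the remaining lists are read beside 12% higher and 9.48% lower over all genes. Medians above 0 were found for replication-dependent histones (2 of 9 higher and 1 lower, median 0.83), nuclear and small noncoding RNAs (1 of 5 higher, 0.70), small leucine-rich proteoglycans and fibroblast genes (4 of 12 higher and 1 lower, 0.68), ferritin and iron-responsive element mRNAs (2 of 6 higher and 1 lower, 0.49), glycolysis genes (3 of 18 higher, 0.47) and class I antigen presentation genes (2 of 14 higher, 0.46). The proteoglycan and fibroblast list had a median of 3.17 TPM in P input and 112 in S input, so some of its genes passed the filter through S alone and the added 1 TPM weighs on their ratio in P. It also weighs on the 2 histones counted as higher. In P polysome, Hist2h2aa1 was listed at 0 and Hist2h3c2 had 1.14 TPM. Interferon-stimulated genes (6 of 32 higher), immediate early genes (1 of 19), extracellular matrix genes (2 of 23) and cholesterol and fatty acid synthesis genes (1 of 29 higher and 2 lower) had medians of 0.13 to 0.18. Isg15, a ubiquitin-like protein, had 898, 1396, 186 and 563 TPM (1.55). Hmgcs1, of the cholesterol pathway, had 22.7, 33.2, 11.7 and 2.97 TPM (-1.61), and its regulator Srebf2 had 34.8, 47.7, 19 and 4.98 (-1.58). MAPK output genes (none of 17 past 2-fold, -0.09), smooth muscle contractile genes (3 of 19 higher and 1 lower, -0.15) and neural crest-like genes (2 of 12 lower, -0.37) stood below 0. The smooth muscle median turned to 0.31 as a residual from a line on the input difference. Its 3 higher genes include Tagln, at most 0.44 TPM in P, and Actg2, listed at 0 in both P libraries. Both passed the filter through S alone, so their ratio in P was not measured. Of the 41 lists with at least 3 genes tested, 33 had a median above 0 relative to the median gene and 16 on the deposited scale. The 17 lists that turned below 0 there are those with a median between 0 and 0.60, from initiation factors up to antioxidant genes.

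Outside the mitochondrial genome, the genes at the extremes had varied roles. Aarsd1, an editing protein for mischarged alanine tRNA, had the largest difference of all, 6.53, with 55.2 TPM in P input, 74.6 in P polysome, 0.362 in S input and 111 in S polysome. Its S input level was near 0 while the other 3 libraries were alike, so the value turns on 1 library. Apol9b, an apolipoprotein L gene, had 253, 329, 4.81 and 64.1 TPM (3.71), the mitochondrial ferredoxin Fdx2 had 74.7, 41.6, 4.24 and 21.2 (3.51) and the deubiquitinase Usp15 had 37.8, 37.2, 0.933 and 12.4 (3.41). In all 3, S input was the lowest library. The other 8 of the 12 highest genes were mitochondrially encoded.

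At the other end, among genes whose mean reached 20 TPM and with no library at 0, Carm1, an arginine methyltransferase, had 42.3, 50.3, 50.7 and 2.53 TPM in P input, P polysome, S input and S polysome (-3.52). Only S polysome was low. Exosc2, a subunit of the RNA exosome, had 41.8, 81.7, 12.3 and 1.37 TPM (-2.84), Nomo1, of the translocon, had 15.4, 59.0, 15.5 and 4.82 (-2.78) and the integrin subunit Itga6 had 30.3, 63.0, 10.9 and 1.90 (-2.47). S polysome was the lowest library in each. Prrc2a differed in form, with 61.3, 87.4, 233 and 35.5 TPM (-2.59), since its S input level was the highest. Vps37b, of the ESCRT-I complex, stood at -2.40, the transcription elongation factor Tcea1 at -2.19 and Parp12 at -2.17. The SUMO protease Senp3 stood at -2.16, the receptor phosphatase Ptprs at -2.12 and Nckap1, of the WAVE complex, at -2.06.

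**Figure D4:**
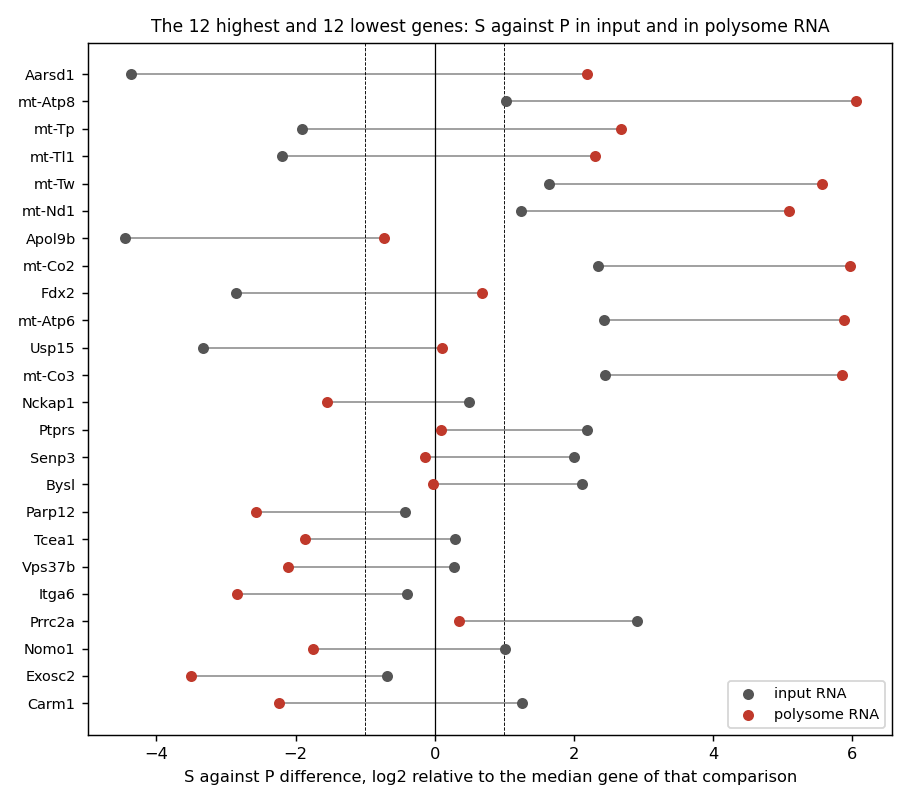
S against P differences (log2, relative to the median gene of each comparison) in input RNA (grey) and polysome RNA (red) for the 12 highest and 12 lowest genes (mean TPM of 20 or more, no library at 0). Aarsd1 goes from -4.37 in input to 2.19 in polysomes, Carm1 from 1.26 to -2.24.

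Among genes listed at 0 in a library whose mean reached 20 TPM, the highest were Hist2h2aa1 (25.5 TPM in P input, listed at 0 in P polysome, 867 in S input and 612 in S polysome), Scamp4 (65.9, 121, listed at 0, and 20.9), Srsf4 (45.0, 66.6, listed at 0, and 16.4) and Uchl3 (92.1, 142, listed at 0, and 10.3). The lowest were Bcat1 (8.44, 77.9, listed at 0, and 0.319), Knstrn (23.1, 61.3, listed at 0, and 0.141), Asf1b (35.7, 75.2, and listed at 0 in both S libraries) and the MAPK phosphatase gene Dusp6 (34.2, 49.1, 0.198, and listed at 0). On the scale used, all of the highest were past 2-fold, and of the lowest only Bcat1 was. No fold is given for the genes of either group. Histone genes have near-identical copies, so the values of Hist2h2aa1 are uncertain.

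Differences in the ratio arose both from polysome and from input RNA. In polysome RNA, 1952 genes (25.6%) were at least 2-fold higher in S than in P and 1850 (24.2%) lower, and in input RNA 1916 (25.1%) and 1878 (24.6%), each relative to its own median gene. Of the 913 genes with a higher ratio, 288 (31.5%) were past 2-fold in polysome RNA only, 225 (24.6%) in input RNA only, 255 (27.9%) in both in the same direction, 17 (1.86%) in both in opposite directions and 128 (14%) in neither. Of the 724 genes with a lower ratio, 202 (27.9%) were past 2-fold in polysome RNA only, 202 (27.9%) in input RNA only, 146 (20.2%) in both in the same direction, 4 (0.552%) in opposite directions and 170 (23.5%) in neither. Fdx2 was higher in ratio with an input difference of -2.85 and a polysome difference of 0.68. Senp3 was lower in ratio with an input difference of 2.0 and a polysome difference of -0.14.

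The difference also varied with the level of a gene. The 1109 genes whose mean over the 4 libraries reached 100 TPM had a median of 0.56, with 295 higher and 38 lower. The 1760 genes with a mean below 10 TPM had a median of -0.13, with 124 higher and 194 lower. All 82 cytosolic ribosomal protein genes are in the upper class. The counts and medians of lists are set against all genes tested, and lists of highly expressed genes were not compared with genes of like level.

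Coding length was compared next, a measure chosen after the differences were seen. With no mouse annotation used here, the length is the longest coding sequence of the human gene of the same symbol in GENCODE release 29, which 92.6% of the genes tested have. In the 502 genes with fewer than 450 coding nucleotides, 24.9% were at least 2-fold higher and 2.39% lower, with a median of 0.49. In the 712 genes with at least 3000, 6.32% were higher and 14% lower, with a median of -0.20. Between them the medians were 0.13, -0.07 and -0.19 in order of length. In P, the shortest class had a median ratio of -0.40 and in S of 0.05, so short mRNAs were below the median gene in polysomes in P and at it in S. Spearman's rho of length with the ratio across genes was 0.18 in P and -0.10 in S. It was -0.23 with the difference and -0.19 without 7 lists of ribosomal, respiratory chain, proteasome and related genes. Among genes whose mean reached 20 TPM, the longest class had a median of 0.04, and the shortest class one of 0.57. Genes are not independent replicates, and all share the same 4 libraries.

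**Figure D5:**
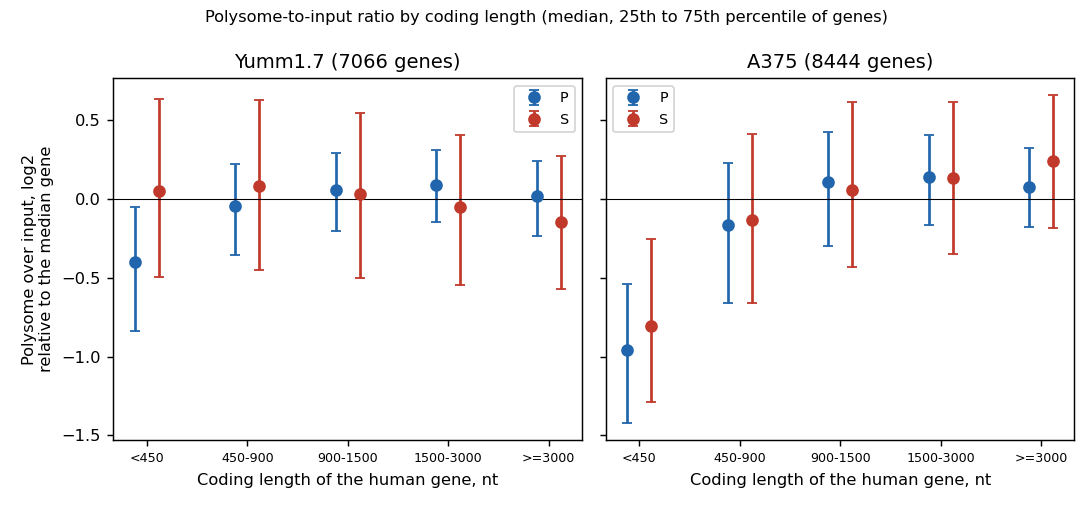
Median polysome-to-input ratio (log2, relative to the median gene; bars from the 25th to the 75th percentile of genes) by coding length of the human gene, for P (blue) and S (red). In Yumm1.7 the class under 450 nucleotides stands at -0.40 in P and 0.05 in S, in A375 at -0.96 and -0.81.

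The same quantity was computed for A375, whose libraries are others. There, 484 of 9132 genes (5.3%) were higher by 2-fold or more, and 183 (2%) were lower. Over the 6102 genes matched by symbol, the differences of the lines had a Pearson r of 0.26 and a Spearman rho of 0.28 across genes. Of the 619 matched genes higher in Yumm1.7 and the 282 higher in A375, 75 were shared, which is 12.1% and 26.6% of these lists. Over all matched genes, 4.62% were higher in A375 and 10.1% in Yumm1.7. Of 596 and 114 lower genes, 14 were shared (2.35% and 12.3%). Over all matched genes, 1.87% were lower in A375 and 9.77% in Yumm1.7, so the shared part of the lower genes was near these shares. In opposite directions, 8 genes were higher in Yumm1.7 and lower in A375, and 21 were lower in Yumm1.7 and higher in A375. Mitochondrially encoded mRNAs were higher in both lines (8 of 12 at least 2-fold higher in A375, median 1.16), as were mt-Rnr1 (3.95 in A375) and mt-Rnr2 (4.25). The mitochondrial tRNA genes mt-Tw (3.41 in A375), mt-Tl1 (2.88), mt-Tc (2.72), mt-Tn (2.65), mt-Ta (2.61) and mt-Tt (2.39) were also higher in both. Heat shock proteins and chaperonins had the same median, 0.62, in both lines. Proteasome subunits had a median of 0.38 in A375, with 2 of 36 higher. snoRNA host genes (0.22, none of 20 higher and 2 lower) and other TOP mRNAs (-0.09, 1 of 22 higher and 3 lower) stood near the median gene in A375. Only 6 cytosolic ribosomal protein genes were analysed in A375, and none was past 2-fold. The rho of coding length with the difference was -0.02 in A375. The differences between the lines were not tested.

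Of the 14 genes lower in both lines, the 8 with the largest differences are given here. Itga5, the fibronectin receptor subunit, had 50.9 TPM in P input, 55.5 in P polysome, 103 in S input and 32.4 in S polysome (-1.16 in Yumm1.7 and -1.41 in A375). The tetraspanin Tspan3 had 129, 205, 336 and 136 TPM (-1.36 and -1.18), and Pigt, of the enzyme that attaches GPI anchors, had 36.9, 62.0, 27.8 and 14.3 (-1.05 and -1.35). Selenon (-1.45 in A375), the kinase Stk24 (-1.23 and -1.33), the netrin receptor Neo1 (-1.13 and -1.57), the adaptor Traf2 (-1.05 and -1.04) and the palmitoyltransferase Zdhhc5 (-1.38 and -1.04) were the others.

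The labelled cell type was checked against marker genes. Of 12 melanocyte and melanoma markers, 6 were analysed, and their summed level was 263, 551, 191 and 197 TPM in P input, P polysome, S input and S polysome, almost all of it Gpnmb (249, 530, 181 and 187). The defining pigment genes Pmel and Mlana were at most 1.29 TPM and Mitf at most 5.14. Smooth muscle markers summed to 55.6, 81.4, 889 and 1748 TPM over 7 of 8 markers. Smtn made up most of this in P and was lower in S (49.0, 70.5, 12.2 and 9.75). Acta2 led in S (5.97, 10.2, 603 and 1194), with Myh11 at most 0.335 TPM and Des at most 0.654. Of the smooth muscle markers, 4 were tested and 2 were at least 2-fold higher in ratio, Tagln and Actg2. Tagln had 0.44, 0.064, 138 and 233 TPM and Actg2 was listed at 0 in both P libraries, so both passed the filter through S alone and their ratio in P was not measured. Fibroblast markers summed to 258, 429, 396 and 403 TPM over 8 of 10. Pdpn made up most of this in P and was lower in S (214, 360, 67.3 and 38.0), while Col3a1 (25.4, 40.7, 204 and 235), Col1a2 (12.4, 21.8, 74.1 and 81.4) and Dpt (0.926, 0.991, 35.2 and 34.6) were higher in S. Col1a1 was at most 1.0 TPM. The median input difference of the 5 fibroblast markers tested was 3.49, and none was past 2-fold in ratio. Endothelial, leukocyte and keratinocyte markers had 1 gene analysed each, at most 2.0 TPM for Cdh5 and 3.34 for Krt10, while Cd68 had 63.8, 75.9, listed at 0, and 4.95. The part of other cell types in the differences above was not tested.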

How the data were processed

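The values are TPM, made by the authors from their reads and deposited as 1 table per cell line. Per the labels' protocols, libraries were randomly primed from RNA purified on poly-T magnetic beads. Per the submitters' processing notes, the builds were GRCm38 (mm10) and GRCh38 (hg38). The aligner, quantifier, annotation and strandedness are not given in any source used here, so reads of overlapping genes and near-identical copies may be split in ways that cannot be checked. Log2 ratios of TPM + 1 were computed with Python 3.11.15, pandas 2.3.3 and numpy 2.4.6, and figures with matplotlib 3.10.9. The calculation was tested on simulated data. The log2(TPM + 1) scale understates differences of low genes. A gene was counted as higher or lower from a 2-fold difference, with no test, since each group has 1 library.

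Members and the 46 gene lists, 6 of them of cell type markers, were chosen with earlier results of these data known. Genes were named by rule: the 12 highest and 12 lowest with mean TPM of 20 or more over the 4 libraries and none at 0, the 4 highest and 4 lowest of those listed at 0, up to 4 members of a list with its median and 2 against it with a mean of at least 10 TPM, fixed single genes, 8 genes in each direction in both lines, and 3 per pattern of input and polysome differences. Genes named for lying near the thresholds are the exceptions. One of the fixed single genes is not reported here. Mouse and human genes were matched by symbol in capitals. Alternatives were other pseudocounts, filters and scalings, and a residual from a straight line on the input difference. The 2 monosome libraries were used in the filter on mean TPM only.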

Additional observations from a re-analysis of the deposited data

Results flagged for a closer look

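Among the named genes with mean TPM of 10 or more and no library at 0 in either line, 2 were past 2-fold in opposite directions in Yumm1.7 and A375. Gas5, a noncoding host of small nucleolar RNAs, stood at 1.75 in Yumm1.7 and -1.04 in A375, where it had 467 TPM in P input, 124 in P polysome, 551 in S input and 69.1 in S polysome. In both lines and both states its polysome level was below its input level. Amd1, a polyamine synthesis enzyme whose mRNA has an upstream open reading frame, stood at 1.16 in Yumm1.7 (42.0, 61.9, 2.64 and 6.88 TPM) and -1.05 in A375 (75.1, 53.9, 21.3 and 6.63 TPM). Each value rests on 1 library per group, and the differences between the lines were not tested.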

How the results depend on the processing

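The main counts were 913 genes higher and 724 lower, of 7634. With 5 TPM added in place of 1 they were 561 and 310. With a filter at a mean of 20 TPM over 6 libraries they were 465 and 409, of 3916 genes tested, and with no filter the lower count was 1181, of 12711. On the deposited scale they were 275 and 2311, since the median gene stood at -0.60. The other settings kept each count within 1.5 times its main value, from 876 to 1224 higher and from 576 to 984 lower. The median of mitochondrially encoded mRNAs ranged from 2.26 to 3.22 over the settings, that of snoRNA host genes from 0.86 to 1.46, that of small-subunit ribosomal proteins from 0.73 to 1.46, that of large-subunit ones from 0.59 to 1.23 and that of proteasome subunits from 0.28 to 0.92. The median of the longest coding class, -0.20, turned to 0.035 among genes with means of 20 TPM or more, an alternative chosen after seeing the data, and the cause was not tested. As a residual from a line on the input difference, the medians of G1/S (-0.12), G2/M (-0.28), splicing (-0.08), cholesterol and fatty acid synthesis (-0.05) and interferon-stimulated genes (-0.03) turned below 0 and that of smooth muscle contractile genes turned above it (0.31). With 5 TPM added, those of G2/M (-0.08), splicing (-0.003) and initiation factor genes (-0.02) turned below 0, and that of smooth muscle contractile genes was 0.07. With the filter at 20 TPM, the medians of initiation factors (-0.02), selenoproteins (-0.02) and extracellular matrix genes (-0.008) turned below 0. So did those of cholesterol and fatty acid synthesis (-0.14), splicing (-0.005) and fibroblast marker genes (-0.09). Of 264 genes recomputed under each setting that kept them, none past 2-fold changed direction. Many did cross the 2-fold line: 93 on the deposited scale, 44 as a residual from a line on the input difference and 30 with 5 TPM added. No paired analysis was possible because each group has 1 library and the labels carry no replicate numbers. Depth is unknown, so what counting error adds to low genes cannot be given.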
